A study of Mus musculus with 12 samples.

Results

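Igf2, H19, Dlk1, Meg3, Rian, Mirg, Peg3, Plagl1, Grb10 and Nnat were followed as a group of imprinted genes with roles in growth. These 10 genes were chosen by symbol and found through their Ensembl identifiers among 47069 distinct identifiers in the expression table. Total RNA-seq had been carried out on Pdgfra/GFP+ cells sorted by fluorescence from mice that were heterozygous for the Pdgfra-H2BGFP knock-in, in which the Pdgfra locus drives a nuclear green fluorescent protein. The 12 libraries formed 4 groups of 3: brain at the embryonic stage E13.5, spinal cord at E13.5, brain at postnatal day 7 (P7) and spinal cord at P7. All groups carried the reporter on a C57BL/6NJ background and none received a treatment. Per the methods of the study, the brain samples were forebrain, each library came from cells pooled over several animals, and the stable nuclear protein can persist in cells that have begun to differentiate. The E13.5 tissue was dissociated mechanically and the P7 tissue with papain, so age and dissociation cannot be told apart.

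An imprinted gene is transcribed mainly from the copy inherited from 1 parent, and the parental copies are told apart by DNA methylation laid down in the germ line. Paternally expressed genes such as Igf2 and Dlk1 tend to promote fetal growth, whereas maternally expressed genes such as H19 and Grb10 tend to restrain it, and many members of this class are turned down after birth. Igf2 and H19 are neighbours that share enhancers, and Dlk1 shares a cluster with the maternally expressed noncoding RNAs Meg3, Rian and Mirg, which carry many microRNAs and small nucleolar RNAs. The libraries were made from a single mouse strain, so levels below are totals over both parental copies.

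The library facts that bear on these genes were few. Levels are given in CPM, read counts scaled to a common library size. Reads recovered from them ranged from 12566345 to 38790312 per library. E13.5 spinal cord replicate 3 stood apart, with 40.9% of its reads in protein-coding genes against 82.4% to 91.1% in the other libraries, and its library size had been multiplied by 0.472 where the other factors lay between 0.955 and 1.20. At P7, replicates 1 and 2 were nearly alike in each region. The SD of their log2 ratio over well-covered genes was 0.065 in brain and 0.067 in spinal cord, against 0.169 to 0.214 for their ratios to replicate 3. The deposited scaling of P7 brain was 13.1% to 16.3% above the trimmed mean of M values (TMM) scaling that matched the other 9 libraries. With TMM scaling the median log2 change of all genes tested moved from -0.19 to -0.02 for both P7 brain comparisons. Since each library is a bulk sample, fewer cells of a type and less RNA per cell cannot be told apart.

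The sorted label was checked against marker genes. The summed level of 5 oligodendrocyte precursor markers (Pdgfra, Cspg4, Olig1, Olig2 and Sox10) ranged from 741 to 1232 CPM in E13.5 brain and from 486 to 715 CPM in E13.5 spinal cord. It reached 5069 to 5954 CPM in P7 brain and 4793 to 4869 CPM in P7 spinal cord. The embryonic libraries therefore also carried these markers, but at a lower level. A list of 7 mesenchymal and leptomeningeal markers (Col1a1, Col1a2, Col3a1, Lum, Dcn, Foxc1 and Foxd1) went the other way. Its sum was 5936 to 8968 CPM in E13.5 brain, 11180 to 12612 CPM in E13.5 spinal cord, 1062 to 1411 CPM in P7 brain and 1188 to 2582 CPM in P7 spinal cord, and each of its 7 genes fell with age in both regions. Its part in the age differences of the imprinted genes was not tested. The sum of 5 myelinating oligodendrocyte markers was 1378 to 3497 CPM in P7 brain and 17314 to 23238 CPM in P7 spinal cord.

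Several members are hosts of microRNAs, and the mature sequences below show what those loci encode. The sequences are those of RefSeq on GRCm38.p6, written 5′ to 3′, with the seed (bases 2 to 8) in capitals. The miR-483 arms lie within Igf2 and the miR-675 arms within H19. The other arms lie within Mirg, where miR-453 and miR-496a-5p are the pair that shares a seed among the 39 mature arms found within members.
mmu-miR-483-5p: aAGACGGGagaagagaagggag
mmu-miR-483-3p: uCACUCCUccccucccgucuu
mmu-miR-675-5p: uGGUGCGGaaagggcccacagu
mmu-miR-675-3p: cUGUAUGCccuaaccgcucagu
mmu-miR-453: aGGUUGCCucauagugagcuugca
mmu-miR-496a-5p: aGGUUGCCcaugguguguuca
mmu-miR-541-5p: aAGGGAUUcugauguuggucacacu
mmu-miR-409-3p: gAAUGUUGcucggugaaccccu

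The start regions of 3 members are shown because their genes sit in the clusters where neighbours changed unequally. Each window covers 300 bases around a RefSeq start site, most of them upstream of it. The Igf2 window is the most CpG-rich of 4 listed for that gene, and the Meg3 window is the upstream one of 2. Capitals mark the letters TGCCGC, the core that the zinc finger protein Zfp57 recognises at methylated imprints, and TATAAA, the TATA box, on either strand.
Igf2 window 3, chr7:142658755-142659054, minus strand: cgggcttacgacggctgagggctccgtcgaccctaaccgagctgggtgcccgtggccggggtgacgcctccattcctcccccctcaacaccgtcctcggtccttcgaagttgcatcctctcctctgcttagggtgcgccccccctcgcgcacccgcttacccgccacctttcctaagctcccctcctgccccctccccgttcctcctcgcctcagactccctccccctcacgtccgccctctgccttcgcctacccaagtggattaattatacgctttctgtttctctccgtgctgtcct
Dlk1 window 1, chr12:109452573-109452872, plus strand: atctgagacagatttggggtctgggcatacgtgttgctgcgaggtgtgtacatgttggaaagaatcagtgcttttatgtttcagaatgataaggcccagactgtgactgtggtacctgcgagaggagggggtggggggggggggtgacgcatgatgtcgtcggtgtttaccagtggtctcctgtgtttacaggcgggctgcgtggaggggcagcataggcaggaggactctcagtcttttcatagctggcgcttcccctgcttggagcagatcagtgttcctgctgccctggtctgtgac
Meg3 window 1, chr12:109540746-109541045, plus strand: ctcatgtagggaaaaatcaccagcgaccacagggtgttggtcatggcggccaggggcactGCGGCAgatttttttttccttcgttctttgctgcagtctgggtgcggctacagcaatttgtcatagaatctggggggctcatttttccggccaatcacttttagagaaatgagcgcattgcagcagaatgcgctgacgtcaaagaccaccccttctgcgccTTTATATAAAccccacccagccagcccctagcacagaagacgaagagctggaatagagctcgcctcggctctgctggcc

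Windows were found for 9 of the 10 members, 14 windows in all. The letters TGCCGC occurred in 5 of them, namely Igf2 window 2, Meg3 window 1 and the windows of Plagl1, Grb10 (window 1) and Nnat, against 11.6% of the 32851 windows of that length in the table. TATAAA occurred in the upstream Meg3 window in overlapping copies on both strands, and 13.6% of all windows held it. GGGGCCCC, a recognition sequence of Plagl1 that reads the same on both strands, was found in the Peg3 window and in 1.08% of all windows. CpG content ranged widely among the members. Grb10 window 1 had 45 CpG dinucleotides, more than 98.1% of all windows, the median window had 7, and the Rian window had 0. These matches describe letters, and binding was not measured.

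Most members fell sharply between E13.5 and P7. In brain, 8 of the 10 were called lower at P7 (limma on log2(CPM + 0.5), Benjamini-Hochberg adjusted p under 0.05 over 18319 genes and a change over 2-fold), where 27.7% of all genes tested were called, 16.7% lower and 11% higher. The brain exceptions were Igf2 and Peg3. In spinal cord 8 of 10 were also called lower, with Peg3 and Nnat as the exceptions, beside 35.1% of all genes called, 18.2% lower and 16.9% higher. The median log2 change of the members was -2.89 in brain and -3.15 in spinal cord, whereas the median over all genes tested was -0.19 and 0.12. The summed level of the 10 genes was 4198 to 4825 CPM in E13.5 brain and 6460 to 7859 CPM in E13.5 spinal cord, and 1162 to 1236 CPM in the 6 P7 libraries. All 10 passed the filter of 0.7 CPM in at least 3 libraries, although Dlk1 was under 0.7 CPM in the P7 brain libraries. Without E13.5 spinal cord replicate 3, 8 members were still called lower in each region. The members were chosen with earlier results of these data known, so these counts describe the chosen genes only.

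**Figure D1:**
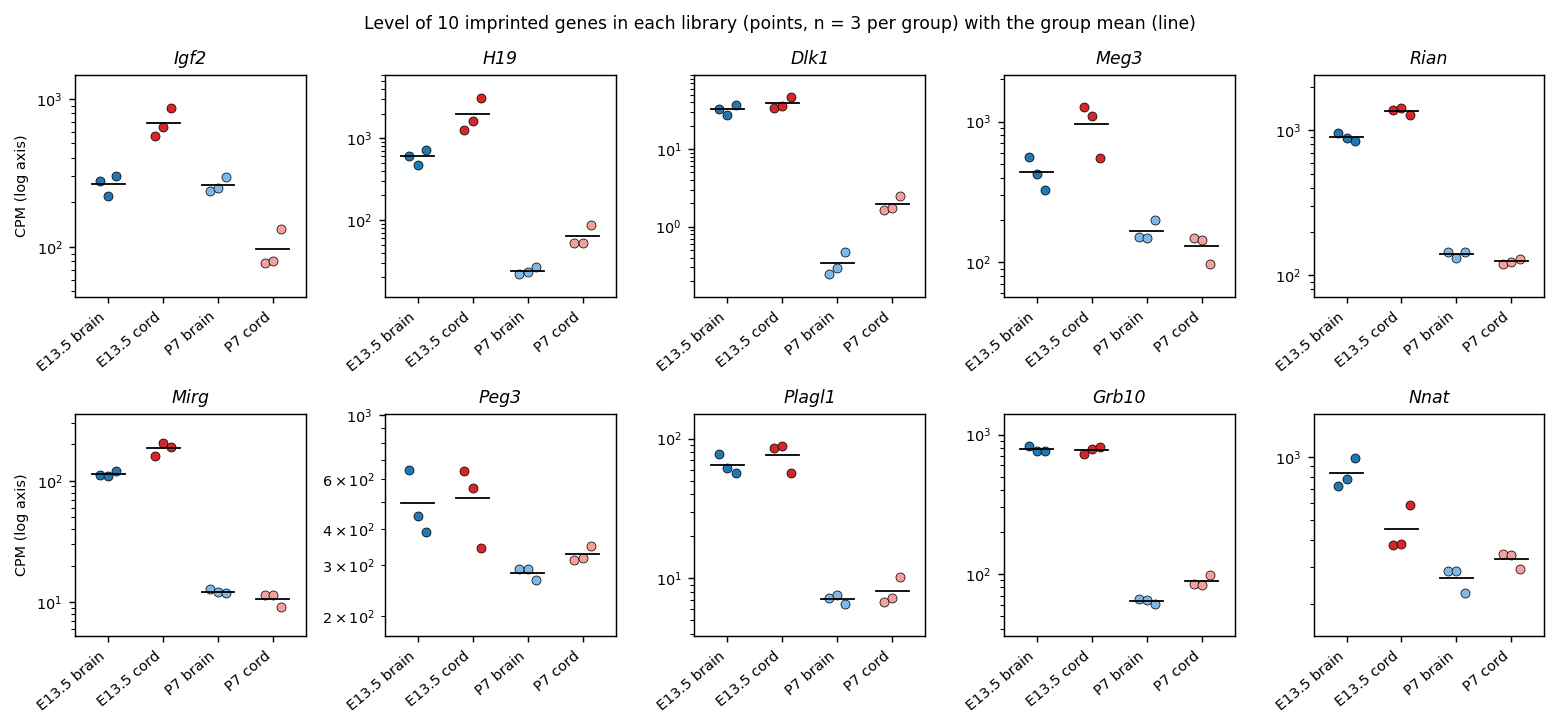
CPM on a log axis for each of the 10 genes, with 1 point per library and a line at the mean of the 3 libraries of a group. The P7 points lie below the E13.5 points of the same region except for Igf2, whose brain points at both ages lie between 222 and 302 CPM, and for Peg3 in spinal cord, where they meet at 345 and 349.8 CPM.

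Regional differences were fewer. At E13.5, Igf2, H19 and Meg3 were lower in brain than in spinal cord, 3 of 10 members where 8.71% of all genes tested were called, 5.17% lower and 3.53% higher in brain. At P7, Igf2 was higher and H19 and Dlk1 were lower in brain, again 3 of 10, where 6.62% were called, 4.35% lower and 2.27% higher. The regional difference itself changed with age for 4 members. It moved towards brain for Igf2 and Meg3 and towards spinal cord for Dlk1 and Nnat, where 16.3% of all genes were called, 6.66% towards brain and 9.66% towards spinal cord. The age and region comparisons draw on the same 12 libraries and are not independent of each other.

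**Figure D2:**
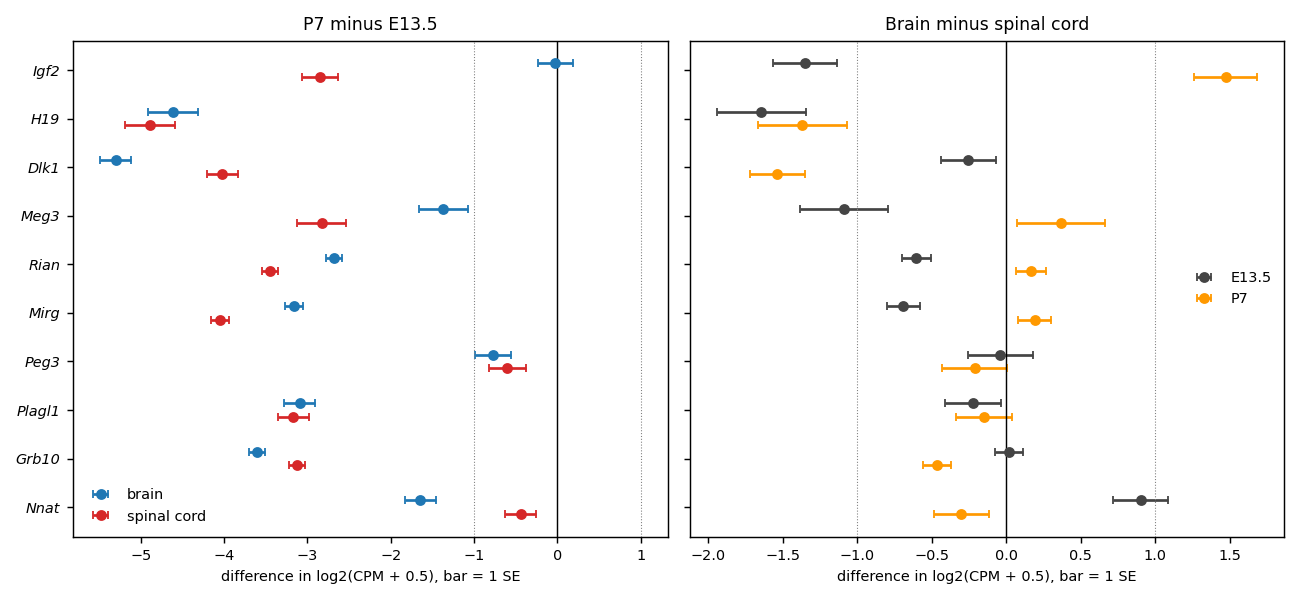
Difference in log2(CPM + 0.5) for each gene, P7 minus E13.5 (left, brain and spinal cord) and brain minus spinal cord (right, E13.5 and P7), with bars of 1 SE and dotted lines at a 2-fold difference. Igf2 is at -0.02 in brain and -2.85 in spinal cord on the left, and at -1.35 and 1.47 on the right.

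Igf2 encodes insulin-like growth factor 2, the paternally expressed ligand of the fetal growth pathway. It lies on chr7:142650766-142666816, minus strand (GRCm38). Its level was 279, 222 and 302 CPM in the E13.5 brain libraries and 558, 647 and 864 CPM in those of E13.5 spinal cord. At P7 it was 240.3, 251 and 295 CPM in brain and 77.5, 80.4 and 132 CPM in spinal cord. Spinal cord was therefore the highest group at E13.5 and the lowest at P7, without overlap with either brain group, and the brain groups at both ages overlapped. Igf2 fell by 2.85 on the log2 scale in spinal cord (SE 0.21, adjusted p = 1.2e-07, 7.21-fold) and differed by -0.02 in brain (SE 0.21, adjusted p = 0.930). The brain difference had either sign, -0.15 to 0.17, across the scalings and left-out libraries that were tried. The brain-minus-cord difference was -1.35 at E13.5 (SE 0.21, adjusted p = 0.00042) and 1.47 at P7 (SE 0.21, adjusted p = 0.00030), and the change between them was 2.83 (SE 0.30, adjusted p = 2.6e-05).

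At P7 the spinal cord library with the most Igf2, replicate 3 at 132 CPM, was also the one with the highest mesenchymal and leptomeningeal sum, 2582 CPM against 1188 and 1222 CPM in the other spinal cord libraries. In P7 brain, replicate 3 was likewise the highest in both, at 295 CPM of Igf2 beside a marker sum of 1411 CPM. The marker sums of P7 brain and P7 spinal cord overlapped, whereas their Igf2 levels did not. At E13.5 both the marker sum and Igf2 were higher in every spinal cord library than in any brain library. Single genes of the list did not all follow its sum. At P7, Foxc1 was 24.2 to 29.8 CPM in brain and 8.45 to 19.3 CPM in spinal cord, the only gene of the list called between regions. At E13.5, Lum was 372 to 572 CPM in brain and 241 to 351 CPM in spinal cord and was not called. Col1a1 and Col1a2 were called lower in brain at that age. Within E13.5 spinal cord the libraries ran in opposite orders, with sums of 12612, 11441 and 11180 CPM beside Igf2 of 558, 647 and 864 CPM. Within E13.5 brain, replicate 1 had the highest sum, 8968 CPM, and replicate 3 the most Igf2, 302 CPM. Pericyte markers (Rgs5, Kcnj8 and Abcc9) summed to 15.6 to 25.1 CPM in E13.5 brain and 76.1 to 91.6 CPM in E13.5 spinal cord. Choroid plexus markers (Ttr, Kl, Folr1 and Clic6) summed to 17.3 to 313 CPM in E13.5 brain and 5.24 to 6.45 CPM in E13.5 spinal cord. At P7 their sum was 60.5 to 501 CPM in brain and 4.47 to 151 CPM in spinal cord, with overlap. Replicate 3 had the highest of these sums in P7 brain and the lowest in P7 spinal cord. The part of any of these lists in the Igf2 differences was not tested. Without P7 spinal cord replicate 3, the P7 difference of Igf2 was 1.72.

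**Figure D3:**
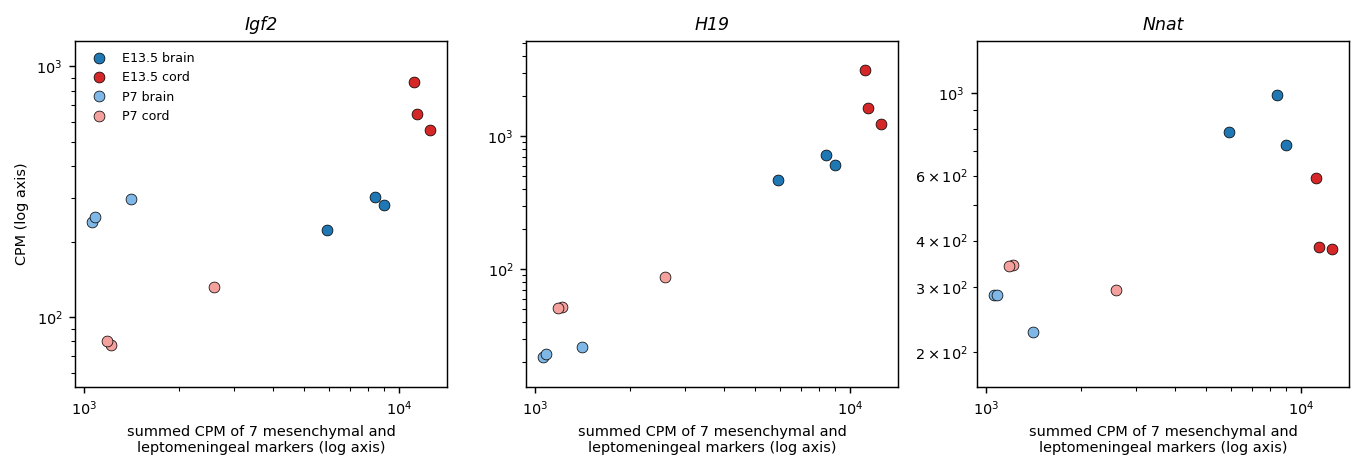
CPM of Igf2, H19 and Nnat (log axis) against the summed CPM of 7 mesenchymal and leptomeningeal markers (log axis), with 1 point per library coloured by group. At marker sums of 1062 to 2582 CPM the P7 brain points of Igf2 lie at 240.3 to 295 CPM and those of P7 spinal cord at 77.5 to 132 CPM, and the order is the opposite for H19.

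H19 is a maternally expressed noncoding RNA that lies 72.6 kb from Igf2, on chr7:142575529-142578143, minus strand. It was the most abundant member per kb of exon in E13.5 spinal cord, at a mean of 813 CPM per kb, followed by Nnat at 247 CPM per kb. Its level was 608, 471 and 722 CPM in E13.5 brain and 1244, 1627 and 3127 CPM in E13.5 spinal cord. At P7 it was 22.0, 22.9 and 26.3 CPM in brain and 52.5, 51.6 and 87.7 CPM in spinal cord. The 4 groups did not overlap, and spinal cord was above brain at both ages. H19 fell by 4.61 in brain (SE 0.30, adjusted p = 5.5e-08, 24.5-fold) and fell by 4.89 in spinal cord (SE 0.30, adjusted p = 1.9e-08, 29.6-fold). The brain-minus-cord difference was -1.65 at E13.5 (SE 0.30, adjusted p = 0.0011) and -1.37 at P7 (SE 0.30, adjusted p = 0.0046), with no change of it called (0.28, SE 0.42, adjusted p = 0.637). E13.5 spinal cord replicate 3 was at 2.18 times the mean of the other libraries of its group for H19, and without it the E13.5 difference was -1.27 and the change with age was -0.10. That library also had the most Col2a1, a cartilage collagen, at 544 CPM, and the cartilage marker sum was 71.1 to 99.7 CPM in E13.5 brain and 153 to 595 CPM in E13.5 spinal cord. The part of these markers was not tested.

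The balance of the neighbours therefore shifted. The plain ratio of H19 to Igf2 CPM within a library, not corrected for gene length, took values of 2.18, 2.12 and 2.39 for the E13.5 brain libraries, and of 2.23, 2.52 and 3.62 for those of E13.5 spinal cord. At P7 it was 0.091, 0.091 and 0.089 in brain and 0.677, 0.642 and 0.665 in spinal cord. Every P7 library was below every E13.5 library, and the P7 regions did not overlap. Per kb of exon, H19 averaged 26.0 CPM per kb and Igf2 16.9 CPM per kb in P7 spinal cord, and 9.64 and 45.8 CPM per kb in P7 brain. The tests used the log2 ratio with 0.5 CPM added to each gene. Averaged over regions, it fell by 3.32 with age (exact permutation within regions, two-sided, p = 0.005, the smallest that the 400 arrangements allow, adjusted p = 0.02 over 8 ratio tests). Within brain the change was -4.59, and within spinal cord it was -2.04. Between regions, brain minus cord averaged -1.57 (exact permutation within ages, two-sided, p = 0.01, adjusted p = 0.02) and was -0.29 at E13.5 and -2.84 at P7. With P7 replicates 1 and 2 counted as 1 sample, the regional difference was -1.57 with an adjusted p of 0.067 in the exact permutation test.

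**Figure D4:**
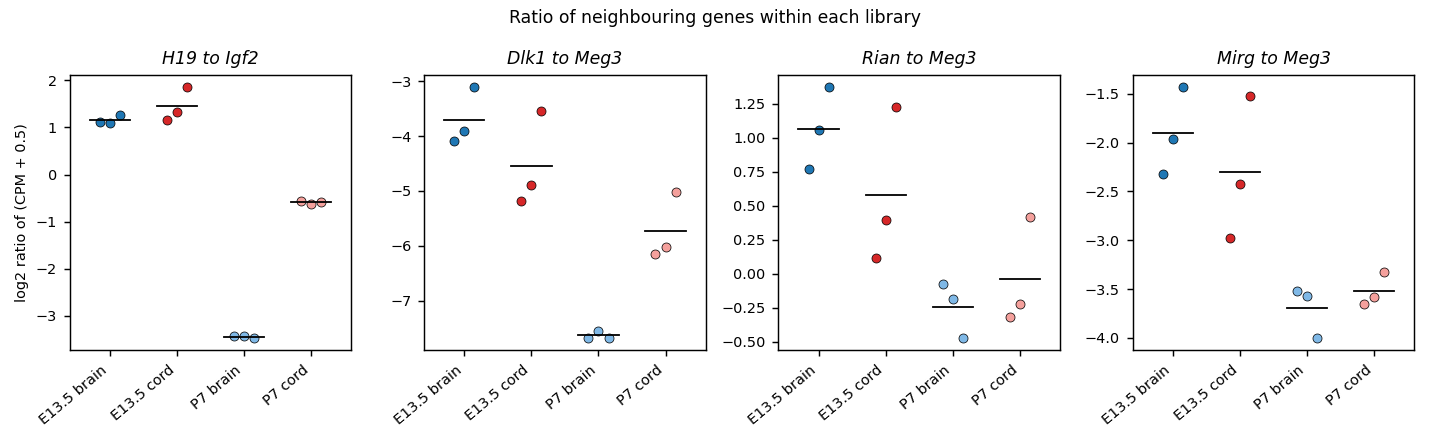
Log2 ratio of (CPM + 0.5) between neighbouring genes within each library, with 1 point per library and a line at the mean of each group of 3, for H19 to Igf2, Dlk1 to Meg3, Rian to Meg3 and Mirg to Meg3. The P7 points lie below 0 for H19 to Igf2, near -3.44 in brain and -0.59 in spinal cord, and the E13.5 points lie above 1.08.

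The hairpin gene Mir483, whose sequences are given above, lies in an intron of Igf2 and had 124 reads in all. Its mean was 0.31 ± 0.17 CPM in E13.5 brain, 1.99 ± 0.91 CPM in E13.5 spinal cord and 0.15 ± 0.07 CPM in P7 brain (SD, n = 3), and it had 0 reads in P7 spinal cord, where 3 reads would be 0.081 to 0.093 CPM. Its highest group was thus also that of Igf2. Mir675, which lies within an exon of H19, had 0 reads. Across the members, all 7 microRNA hairpins that lie within an exon of their host had 0 reads and all 15 others had at least 1. How reads over both a host exon and a hairpin were assigned was not given, so these 0 counts do not measure an absence of RNA. Total RNA libraries of this kind measure precursor and host fragments, so these values are not levels of mature microRNAs.

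Dlk1 opens the imprinted cluster on chromosome 12 and encodes a paternally expressed transmembrane protein related to Notch ligands, known as a marker of immature mesenchymal and endocrine cells. It lies on chr12:109452823-109463336, plus strand. Its level was 32.6, 27.8 and 37.4 CPM in E13.5 brain and 34.2, 36.4 and 46.7 CPM in E13.5 spinal cord, and these groups overlapped. At P7 it was 0.24, 0.30 and 0.48 CPM in brain, from 8, 9 and 18 reads, and 1.62, 1.73 and 2.48 CPM in spinal cord, from 60, 56 and 80 reads. The P7 regions did not overlap. Dlk1 fell by 5.30 in brain (SE 0.19, adjusted p = 5.1e-10) and fell by 4.02 in spinal cord (SE 0.19, adjusted p = 2.0e-09), the former understated by the 0.5 CPM added before the log. At P7 brain was below spinal cord by a log2 difference of -1.54 (SE 0.19, adjusted p = 7.8e-05), against -0.26 at E13.5 (SE 0.19, adjusted p = 0.321). The change of that difference was -1.28 (SE 0.26, adjusted p = 0.0022). It was -0.88 with 1 CPM added and -0.75 (adjusted p = 0.066, limma) with reads thinned to equal library size, neither of which was called.

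Meg3, a maternally expressed noncoding RNA with growth-restraining activity, starts 77.7 kb beyond Dlk1 and lies on chr12:109541001-109571726, plus strand. Its level was 563, 426 and 326 CPM in E13.5 brain and 1266, 1091 and 549 CPM in E13.5 spinal cord, so that spinal cord replicate 3 fell within the range of brain. At P7 it was 152, 149 and 199 CPM in brain and 149, 144 and 96.5 CPM in spinal cord, with overlap. Meg3 fell by 1.37 in brain (SE 0.30, adjusted p = 0.0015, 2.59-fold) and fell by 2.83 in spinal cord (SE 0.30, adjusted p = 2.6e-06, 7.12-fold). The regional difference was -1.09 at E13.5 (SE 0.30, adjusted p = 0.014) and 0.37 at P7 (SE 0.30, adjusted p = 0.385), a change of 1.46 (SE 0.42, adjusted p = 0.015). The E13.5 call was lost without brain replicate 3 (-0.90), spinal cord replicate 1 (-0.85) or spinal cord replicate 2 (-0.96), whereas without spinal cord replicate 3 the difference was -1.46.

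Rian and Mirg are noncoding RNAs further along the same strand. Rian hosts many small nucleolar RNAs and lies on chr12:109603940-109661716. Its level was 960, 888 and 845 CPM in E13.5 brain, 1375, 1433 and 1281 CPM in E13.5 spinal cord, 144, 131 and 144 CPM in P7 brain and 119.9, 124 and 129 CPM in P7 spinal cord. The 4 groups did not overlap. Rian fell by 2.68 in brain (SE 0.10, adjusted p = 7.4e-10) and fell by 3.45 in spinal cord (SE 0.10, adjusted p = 1.1e-10).

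Mirg hosts a dense run of microRNAs and lies on chr12:109729764-109749460. Its level was 112, 109 and 121 CPM in E13.5 brain, 160.4, 203 and 191 CPM in E13.5 spinal cord, 12.75, 12.04 and 11.99 CPM in P7 brain and 11.4, 11.6 and 9.18 CPM in P7 spinal cord. As for Rian, spinal cord was the higher group at E13.5 and the lower at P7, without overlap between neighbours in that order. Mirg fell by 3.16 in brain (SE 0.11, adjusted p = 4.9e-10) and fell by 4.05 in spinal cord (SE 0.11, adjusted p = 9.1e-11). The regional difference of Rian was -0.60 at E13.5 and 0.17 at P7, and that of Mirg was -0.69 and 0.19. The changes of these differences, 0.77 for Rian (SE 0.14, adjusted p = 0.0011) and 0.88 for Mirg (SE 0.15, adjusted p = 0.00082), were under 2-fold. The Mirg change was called under TMM (1.07), median-ratio (1.20) and quantile scaling (1.14), and the Rian change under median-ratio scaling (1.10).

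Within this cluster Dlk1 declined more than Meg3. The log2 ratio of Dlk1 to Meg3 fell by 2.56 with age (exact permutation within regions, two-sided, p = 0.01, adjusted p = 0.02), by -3.93 in brain and -1.19 in spinal cord. Rian and Mirg also declined more than Meg3, which starts the run of noncoding RNAs. The log2 ratio to Meg3 fell by 0.96 for Rian (exact permutation, p = 0.015, adjusted p = 0.024) and fell by 1.504 for Mirg (exact permutation, p = 0.005, adjusted p = 0.02). In brain the change was -1.31 for Rian and -1.79 for Mirg, and in spinal cord -0.62 and -1.21. In spinal cord the E13.5 and P7 libraries overlapped for Dlk1 to Meg3 and for Rian to Meg3, and in brain they did not. For Mirg to Meg3 the ages overlapped in neither region. No regional difference of these 3 ratios passed the exact permutation tests, with adjusted p of 0.473, 0.64 and 0.69. For Dlk1 to Meg3 the regional difference had opposite signs, 0.84 at E13.5, where the regions overlapped, and -1.90 at P7, where they did not, and the average over ages was -0.53. For Rian to Meg3 it was 0.49 and -0.20, and for Mirg to Meg3 0.40 and -0.18. With P7 replicates 1 and 2 counted as 1 sample, the ratio changes with age of Dlk1 and Rian to Meg3 had adjusted p of 0.053 and 0.08 in the exact permutation test.

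The small RNA genes of the cluster followed the long transcripts. In the 297 kb from the start of Dlk1 to the end of Mirg, the annotation placed 89 microRNA and small nucleolar RNA genes, of which 69 had reads. Their summed level was 70.9 ± 4.83 CPM in E13.5 brain, 126 ± 20.4 CPM in E13.5 spinal cord, 8.06 ± 0.77 CPM in P7 brain and 7.20 ± 0.43 CPM in P7 spinal cord (SD, n = 3). The order of the groups was that of Rian and Mirg. Of these genes 50 passed the filter, and 0 of them reached 0.7 CPM in any P7 library, so that they passed through their E13.5 levels and had to be higher there. Among the hairpins whose mature arms are printed above, Mir409 averaged 0.57 ± 0.12 CPM in E13.5 brain and 2.27 ± 0.67 CPM in E13.5 spinal cord, and Mir541 averaged 0.83 ± 0.30 and 2.16 ± 0.35 CPM (SD, n = 3). The hairpins Mir453 and Mir496a, which share the GGUUGCC seed, had means of 2.90 ± 0.56 CPM for the former and 0.69 ± 0.10 CPM for the latter in E13.5 brain. Their spinal cord means at that age were 3.73 ± 1.67 and 1.13 ± 0.63 CPM.

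Peg3 encodes a paternally expressed zinc finger protein linked to growth, maternal behaviour and cell survival, on chr7:6703892-6730431, minus strand. Its level was 644, 445 and 393 CPM in E13.5 brain, 637, 558 and 345 CPM in E13.5 spinal cord, 290.3, 292 and 266 CPM in P7 brain and 314, 319 and 349.8 CPM in P7 spinal cord. The spread at E13.5 was wide in both regions, and E13.5 spinal cord replicate 3 was within the P7 range. Peg3 differed with age by -0.77 in brain (SE 0.22, adjusted p = 0.0083, 1.71-fold) and -0.60 in spinal cord (SE 0.22, adjusted p = 0.026, 1.52-fold), under the 2-fold limit in each case. The regional differences were -0.04 and -0.21 (SE 0.22 each). Zim1, a maternally expressed neighbour of Peg3, fell by 1.93 in brain (adjusted p = 7.3e-05) and fell by 3.00 in spinal cord (adjusted p = 1.0e-06).

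Plagl1 encodes a paternally expressed zinc finger transcription factor that regulates other imprinted genes, on chr10:13060504-13131694, plus strand. Its level was 77.05, 61.7 and 56.4 CPM in E13.5 brain, 85.2, 88.1 and 57.0 CPM in E13.5 spinal cord, 7.21, 7.64 and 6.55 CPM in P7 brain and 6.78, 7.25 and 10.1 CPM in P7 spinal cord. The regions overlapped at each age and the ages did not. Plagl1 fell by 3.09 in brain (SE 0.19, adjusted p = 3.1e-08, 8.53-fold) and fell by 3.17 in spinal cord (SE 0.19, adjusted p = 1.4e-08, 8.99-fold). Its regional differences, -0.22 at E13.5 and -0.15 at P7 (SE 0.19 each), had adjusted p of 0.392 and 0.599. The change of region with age was 0.08, with an SE of 0.26.

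Grb10 encodes an adaptor protein that binds insulin and insulin-like growth factor receptors and restrains growth. It is expressed from the maternal copy in most tissues and from the paternal copy in neurons, and lies on chr11:11930508-12038683, minus strand. Its level was 824, 761 and 763 CPM in E13.5 brain, 721, 792 and 808 CPM in E13.5 spinal cord, 65.8, 65.0 and 61.0 CPM in P7 brain and 84.3, 83.6 and 97.7 CPM in P7 spinal cord. Replicates were closer for Grb10 than for most members, and the regions overlapped at E13.5 but not at P7. Grb10 fell by 3.603 in brain (SE 0.09, adjusted p = 7.0e-11, 12.2-fold) and fell by 3.12 in spinal cord (SE 0.09, adjusted p = 1.4e-10, 8.71-fold). The P7 regional difference was -0.46 (SE 0.09, adjusted p = 0.0031), which is 1.38-fold and below the limit for a call. With TMM scaling, which lowers the library sizes of P7 brain, it was -0.27 (adjusted p = 0.072), and over the scalings and tools tried it lay between -0.52 and -0.20.

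Nnat encodes neuronatin, a small paternally expressed membrane protein of developing brain and endocrine cells, on chr2:157560078-157562522, plus strand. It lies inside the body of Blcap, which is on the opposite strand, and shares no exon bases with it. Its level was 725, 788 and 992 CPM in E13.5 brain and 380.3, 385 and 591 CPM in E13.5 spinal cord, without overlap. At P7 it was 285, 286 and 226 CPM in brain and 344, 341 and 294 CPM in spinal cord. Nnat fell by 1.65 in brain (SE 0.18, adjusted p = 7.4e-06, 3.13-fold) and differed by -0.44 in spinal cord (SE 0.18, adjusted p = 0.048, 1.36-fold). The regional difference was 0.90 at E13.5 (SE 0.18, adjusted p = 0.0025) and -0.30 at P7 (SE 0.18, adjusted p = 0.245), a change of -1.21 (SE 0.26, adjusted p = 0.0032). Without E13.5 spinal cord replicate 3 the E13.5 difference was 1.11 and was called, and with median-ratio scaling the change was -0.87 and was not. With TMM scaling the P7 difference was -0.11 (adjusted p = 0.751, limma) and the change was -1.01. Blcap averaged 69.1 CPM in E13.5 brain and 59.0 CPM in E13.5 spinal cord. The sum of 5 neuronal markers (Tubb3, Stmn2, Snap25, Syt1 and Dcx) was 645 to 819 CPM in E13.5 brain and 657 to 826 CPM in E13.5 spinal cord. It was 308 to 353 CPM in P7 brain and 269 to 281 CPM in P7 spinal cord. Unlike the other markers of this list, Snap25 was higher in P7 brain, at 42.6 CPM against 23.0 CPM in E13.5 brain. Stmn2 and Syt1 were called higher in P7 brain than in P7 spinal cord. The part of these markers in the Nnat differences was not tested.

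Per kb of exon, the order of the members differed between groups. In E13.5 brain Nnat led at a mean of 456 CPM per kb, followed by H19 at 244, Grb10 at 86.1 and Rian at 49.2 CPM per kb. In P7 brain Nnat still led at 145 CPM per kb, followed by Igf2 at 45.8 and Peg3 at 21.2 CPM per kb, while H19 was at 9.64 CPM per kb. In P7 spinal cord Nnat was at 178 CPM per kb and Dlk1 was the lowest member, at 0.343 CPM per kb. Exon length was the union of exons annotated in GENCODE M21, a later release than the one used by the authors for counting. The order therefore depends on that annotation and on which isoforms the cells used. Igf2 shares 62.8% of its exon bases with the gene model Gm49394 on the same strand, which was absent from the expression table. It shares 98 bases with the antisense gene Igf2os, which averaged 7.68 CPM. Counting by strand is not stated, so reads in the bases shared with Igf2os cannot be told apart.

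The profile of each member over the 12 libraries was compared with those of 11458 genes, by the root mean square difference of the centred log2 values. The closest profile to Igf2 was that of Gjb2 (0.17), a gap junction gene, followed by Igfbp2 (0.26), a binding protein of insulin-like growth factors, and Vstm4 (0.30). The nearest to Meg3 were Mertk (0.19), Ryr1 (0.28) and Plekhh2 (0.30). H19 had another member, Dlk1 (0.54), among its neighbours, second to Ebf1 (0.52) and ahead of Ngfr (0.58). By contrast, Plag1 (0.48), Ebf1 (0.49) and Dnm3os (0.51) were nearest to Dlk1. Grb10 was closest to Mest (0.20), another imprinted gene, then Glt8d2 (0.21) and Rarb (0.24). For Rian these were Pard3b (0.19), Itpr3 (0.19) and Six5 (0.20), for Mirg Notch3 (0.19), Plppr3 (0.22) and Col23a1 (0.26), and for Plagl1 Pard3b (0.16), Dock5 (0.21) and Auts2 (0.22). Peg3 and Nnat, whose levels varied least, had near neighbours in Wdr19 (0.11) and Ing4 (0.12) for the former, and for the latter in Cdca4 (0.11), Efcab11 (0.13) and Tubb5 (0.15). Among the members themselves, Rian and Plagl1 were the most alike (0.25) and H19 and Peg3 the least (2.22).

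Other genes of the insulin-like growth factor pathway moved with age in both regions. Of 28 listed, 24 were tested. In brain 13 were called lower and 1 higher (16.7% and 11% of all genes tested), and in spinal cord 13 lower and 4 higher (18.2% and 16.9% of all genes), with a median log2 change of -1.30 and -1.16 beside -0.19 and 0.12 over all genes. The receptors differed among themselves. Igf1r, the signalling receptor, averaged 134 CPM in E13.5 brain and 48.9 CPM in P7 brain, and Igf2r, an imprinted receptor that clears Igf2, averaged 313 and 97.5 CPM. Insr, the insulin receptor, averaged 107 and 101 CPM, a log2 difference of -0.08 (adjusted p = 0.543). The RNA-binding protein gene Igf2bp1, whose product binds Igf2 transcripts, fell by 6.54 in brain (SE 0.12, adjusted p = 9.1e-12) and fell by 6.42 in spinal cord (SE 0.12, adjusted p = 1.1e-11). Plag1, a zinc finger activator of Igf2 transcription, changed by -4.70 in brain and -3.33 in spinal cord, and Igfbpl1, related to the binding proteins, by -5.52 and -6.75. Igf2bp2 fell by 3.55 in brain and by 1.20 in spinal cord. Among the genes called higher were Igfbp6 in brain (1.43), and Grb14 (3.35), Irs2 (2.08), Stc2 (1.18) and Irs4 (1.11) in spinal cord.

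The binding proteins Igfbp2 and Igfbp5 were called in the same direction as Igf2 when the regional difference was compared between ages. That change was 1.90 for Igfbp2 (SE 0.28, adjusted p = 0.00028) and 4.66 for Igfbp5 (SE 0.36, adjusted p = 3.7e-06). Igfbp5 fell by 4.81 in spinal cord, from a mean of 909 to 31.7 CPM, and averaged 34.4 and 29.6 CPM in brain at E13.5 and P7. Igfbp2 averaged 347 CPM in E13.5 spinal cord and 62.4 CPM in P7 spinal cord. Over the list, 3 genes were called higher and 7 lower in this comparison, beside 6.66% and 9.66% of all genes.

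Members and lists were chosen with earlier results of these data known, which limits any comparison between them. A further list of 43 imprinted genes, of which 41 were tested, moved less uniformly than the members. In brain 14 were called lower and 4 higher (16.7% and 11% of all genes tested), and in spinal cord 16 lower and 7 higher (18.2% and 16.9% of all genes). The median log2 change was -0.45 in brain and -0.26 in spinal cord, beside -2.89 and -3.15 for the members. Those that fell included Mest (-3.40 in brain and -3.31 in spinal cord), Slc38a4 (-3.61 and -2.85), Asb4 (-3.95 and -1.36) and Airn (-2.60 and -3.29). Cdkn1c, a maternally expressed inhibitor of the cell cycle, also fell (-3.10 and -1.38). Those that rose were led by Rasgrf1 (5.004 and 3.78), Ampd3 (4.70 and 2.22), Nap1l5 (3.34 and 3.42) and Ddc (2.23 and 5.49). Between regions, 2 of the 41 favoured brain and 2 favoured spinal cord at E13.5, and at P7 these numbers were 2 and 4, beside 8.71% and 6.62% of all genes called. Of 14 regulators of imprinting, 12 were tested. In brain 4 of these were called lower with age, namely Hells, Uhrf1, Dnmt3b and Zfp57, beside 16.7% of all genes called lower. In spinal cord Zfp57 (-1.57) and Dnmt3b (-1.09) were called lower, beside 18.2% of all genes.

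**Figure D5:**
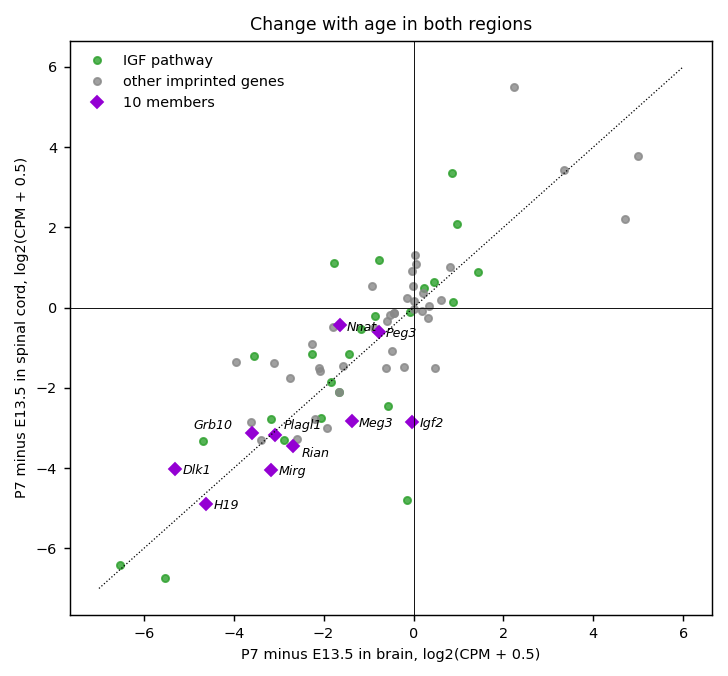
Change from E13.5 to P7 in log2(CPM + 0.5), brain on the x axis and spinal cord on the y axis, for the 10 members (diamonds, named), 24 genes of the insulin-like growth factor pathway and 41 other imprinted genes (circles, Igf2r being in both lists), with a dotted line of equal change. Igf2 lies at -0.02 and -2.85, below the line, and Nnat at -1.65 and -0.44, above it.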

How the data were processed

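Stranded total RNA libraries from sorted Pdgfra/GFP+ cells were sequenced as read pairs by the authors, aligned to mm10 with STAR 2.5.0a and counted per GENCODE gene with featureCounts 1.5.0-p1, multi-mapping reads being shared fractionally and rounded. Whether counting used the strand, and how reads over overlapping genes were assigned, was not given in the sources used here. The authors deposited CPM without a log, computed on rescaled library sizes. In 3 of the 12 columns the deposited values sum to more than plain CPM allows, and these were treated as a scaled signal on the same scale. The table has 47072 rows with 3 repeated identifiers, and 0 columns of values were left unused. All values (100.0%, tolerance 0.01 reads) were whole multiples of 1 read, so reads were recovered. The level of 3 reads was 0.079 to 0.506 CPM, which covers counting error only. Symbols, positions and exons came from GENCODE M21, a later release than the one used by the authors for counting. A symbol was found for 46488 identifiers.

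Groups and replicate numbers came from the sample titles. Whether libraries of a group came from separate litters was not stated, so p-values measure the spread between these libraries. Genes at 0.7 CPM or more in at least 3 libraries (18319) were fitted with limma 3.58.1 (intensity trend, R 4.3.3) on log2(CPM + 0.5), with 1 mean per group over all 12 libraries, since the study used limma-voom on counts. A gene was called at a Benjamini-Hochberg adjusted p under 0.05 and a change over 2-fold. Adjusted p-values without another name are from this fit, and fold changes are on its scale, which understates changes of low genes. Ratios of neighbouring genes were tested by exact permutation within strata, adjusted over 8 tests. Alternatives were other scalings, edgeR 4.0.16, voom and DESeq2 1.42.0 on recovered reads, pseudocounts, filters, a replicate block, leaving out each library, averaging P7 replicates 1 and 2, and thinned reads. The fits were tested on simulated data. All 10 members were described. Of the other lists, counts are given, with up to 4 called genes per direction named by size. The receptors, Col2a1, Blcap, Lum at E13.5, Snap25, Zim1 and Airn in brain and the choroid plexus markers were named after their values were seen. So were Cdkn1c, Asb4 and Igf2bp2 in spinal cord. The 3 nearest profiles per member were taken among genes averaging at least 5 CPM, and 1 of them is not reported here. Members and lists were chosen with earlier results of these data known.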

Additional observations from a re-analysis of the deposited data

Results flagged for a closer look

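The following results were singled out because the difference between brain and spinal cord was not the same at E13.5 and at P7, by the test of that change in the limma fit with Benjamini-Hochberg adjusted p. For Igf2 the brain-minus-cord difference rose by 2.83 on the log2 scale (adjusted p = 2.6e-05). The E13.5 libraries all had more Igf2 in spinal cord than in brain and the P7 libraries all had less. For Meg3 the change was 1.46 (adjusted p = 0.015), with regions that overlapped at each age. For Dlk1 it was -1.28 (adjusted p = 0.0022), resting on 8 to 18 reads in each P7 brain library. For Nnat it was -1.21 (adjusted p = 0.0032), with brain above spinal cord in every E13.5 library. On the deposited scale brain was below spinal cord in every P7 library, but with TMM scaling the P7 difference was -0.11 (adjusted p = 0.751, limma). Markers of other cell types also differed between these groups, and their part in these results was not tested.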

How the results depend on the processing

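The number of genes called stayed within 1.5 times its reported value in all 5 comparisons under all 25 alternatives, and so did the number of members called. Counts of the other lists moved further in some settings. Imprinting regulators called in spinal cord with age numbered 1 under quantile normalization and with thinned reads, against 2. Other imprinted genes called between regions at E13.5 numbered 2 with 1 CPM added, against 4. Of 1250 member values recomputed, 1206 kept their direction and their side of the threshold, 6 lost a call, 5 gained one and 33 changed sign, all of the last in differences that had not been called. For Igf2 in brain with age the value was 0.1671 under TMM, 0.1687 under median-ratio scaling, 0.0423 under quantile normalization and 0.0201 with P7 replicates 1 and 2 averaged. For Plagl1 between regions at P7 the same 3 scalings gave 0.0323, 0.0749 and 0.0444, and for the change of Peg3 0.0197, 0.1606 and 0.11. The Peg3 regional difference at P7 was 0.0253 under median-ratio scaling and 0.0886 under quantile normalization. It was 0.0005 at E13.5 with voom. For Grb10 at E13.5 median-ratio scaling gave -0.078, and the Plagl1 change was -0.0356 with the P7 replicates averaged. The cause was not tested. Leaving out each library gave -0.1531 to 0.07 for Igf2 in brain, -0.2535 to 0.0207 for Plagl1 at P7, -0.3502 to 0.0922 for the Peg3 change and -0.0326 to 0.0491 for Grb10 at E13.5. It gave -0.3034 to 0.139 for Peg3 at E13.5, -0.0355 to 0.276 for the Plagl1 change, -0.103 to 0.5618 for the H19 change and -0.0552 to 0.3093 for the regional difference of Mirg to Meg3. With the P7 replicates averaged, which leaves fewer samples, the ratio values were -1.57 for H19 to Igf2 between regions, -2.48 for Dlk1 to Meg3 with age and -0.93 for Rian to Meg3 with age, and none kept an adjusted p under 0.05 in the exact permutation test. Depth limits Dlk1 in P7 brain, with 8 to 18 reads per library, and the hairpin genes.

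Replicate numbers are shared by the groups, but deviations of same-numbered brain and spinal cord libraries correlated at 0.31, 0.08 and 0.41 at E13.5 and at 0.01, 0.02 and 0.04 at P7, so the numbers were not taken to pair the samples. At E13.5 the brain libraries 1 and 3 correlated best with their own number, and replicate 2 did not. Differently numbered pairs at that age ranged from -0.44 to 0.20. For every member except Grb10, E13.5 replicate 3 deviated from its group mean in the same direction in both regions. For H19 the log2 deviations were 0.29 in brain and 0.76 in spinal cord, and for Meg3 -0.39 and -0.73. Whether these libraries shared a batch was not tested. With a replicate block the genes called numbered 5074, 6438, 1595, 1212 and 2994 in the 5 comparisons, against 5068, 6436, 1595, 1213 and 2990 without it. With labels exchanged within same-numbered pairs the regional H19 to Igf2 ratio was -1.57, with an adjusted p of 0.125 in the exact permutation test. Brain was below spinal cord in every such pair, so the unadjusted p was the smallest that these arrangements allow. The adjustment here was over the regional ratio tests alone. This setting therefore cannot show that the difference was lost.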
